A study of Danio rerio with 12 samples.

Results

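Transcripts of the proteasome were followed across 4 groups of cells sorted by fluorescence from the adult zebrafish retina. The members are the 41 features (38 gene symbols, of which psmb5, psmc4 and adrm1 each name a pair of features) whose symbol in the deposited tables of differentially expressed genes starts with psma to psmg and a digit, or is adrm1. They were chosen from 30258 features in the count matrix. All 41 stand in the table of LWS1 and LWS2 cones and 0 in the table of tdTomato+ and tdTomato- cells, so the contrast of LWS2 with LWS1 chose them. In that contrast their values are given as a description. By subcomplex, 8 belong to the 20S alpha rings, 8 to the 20S beta rings, 6 to the ATPases of the 19S base, 16 to the other parts of the 19S particle, 1 is an activator and 2 are assembly factors.

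The proteasome is the main protease that degrades ubiquitin-tagged proteins in the cytoplasm and nucleus of eukaryotic cells. Its core, the 20S particle, is a barrel in which the beta rings carry the catalytic sites and the alpha rings form the gate. The 19S particle caps the barrel, binds and removes ubiquitin, and unfolds the substrate with a ring of ATPases. Cone photoreceptors renew the opsin-rich membranes of their outer segments throughout life, and their protein turnover relies in part on this machine.

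The cells were sorted from retinas of dark-adapted fish of both sexes, aged 0.5 to 1.5 years, of 2 transgenic lines labelled as wild type in genotype. LWS2 and LWS1 cones came from the lws:PAC(H) line, in which RFP (dsRedExpress) stands behind the lws2 promoter and GFP behind the lws1 promoter. LWS2 cones were the RFP+ cells and LWS1 cones the GFP+ cells. The tdTomato+ cells came from the thrb2:tdTomato line, whose thyroid hormone receptor beta promoter drives tdTomato in all adult LWS cones, and the tdTomato- cells were the remaining retinal cells of that line. Opsin subtype and reporter protein cannot be told apart in LWS2 against LWS1, and the line cannot be told apart from the cell population wherever an lws:PAC(H) group meets a tdTomato group. Each group had 3 libraries, and since no source says that they came from separate fish, p-values measure only the spread between these libraries.

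Library totals ran from 459226 to 3189337 counts, with tdTomato- replicate 1 the smallest. The 13 mitochondrial genes took 12.9% to 13.8% of counts in LWS2, 18.9% to 29.7% in LWS1, 22.0% to 71.7% in tdTomato+ and 53.4% to 54.3% in tdTomato- libraries. Summed LWS cone markers (5 features) lay between 16660 and 32480 normalised CPM in the LWS2, LWS1 and tdTomato+ libraries and between 358 and 4855 in the tdTomato- libraries. GEO labels the tdTomato- cells as cone photoreceptors, and they held 7635 to 11960 CPM of Müller glia markers, against at most 1577 elsewhere. They also held 48170 to 59720 CPM of summed cone markers (14 features), beside 58780 to 75360 in LWS2 and 81730 to 113700 in LWS1. In tdTomato+ libraries these cone markers summed to 61730 to 105900 CPM. Opsins of other cones (6 features) summed to 15830 to 32070 CPM in tdTomato-, 5550 to 16280 in tdTomato+ and 4703 to 4823 in LWS2 libraries. The tdTomato- cells thus held transcripts of other cones as well as of glia and rods. Summed rod markers (14 features) ranged from 1727 to 3067 CPM in LWS2, 2276 to 4789 in LWS1, 4667 to 13050 in tdTomato+ and 15480 to 40860 in tdTomato- libraries. These shares move with the groups compared here, and their part in the results was not tested beyond the fits without mitochondrial genes. A level in such bulk samples cannot tell fewer cells of a type from less RNA per cell.

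Levels are given as CPM, the library-scaled read counts, normalised by TMM factors over all 12 libraries. They are compared between groups for a gene, because gene lengths were not used. Sums over genes, shares within a pair of copies and the highest level by which genes were named also depend on gene lengths. The 41 members summed to 4786 ± 348 CPM in LWS2 cones, 1567 ± 305 in LWS1 cones, 1483 ± 590 in tdTomato+ cells and 1814 ± 382 in tdTomato- cells (SD, n = 3 each). The LWS2 mean was 3.05 times the LWS1 mean, 3.23 times the tdTomato+ mean and 2.64 times the tdTomato- mean. The lowest LWS2 library, at 4442 CPM, lay above the highest library of the other groups, at 2255 CPM. As a share of counts from non-mitochondrial genes, the members took 0.824% ± 0.0442 in LWS2, 0.238% ± 0.0386 in LWS1, 0.225% ± 0.0599 in tdTomato+ and 0.281% ± 0.0352 in tdTomato- libraries. No test is given for a sum over members that were chosen by their values.

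LWS2 had the highest mean in each of the 4 large subcomplexes. The ratio of mean CPM between LWS2 and LWS1 was 2.96 for the 20S alpha members, 3.64 for 20S beta, 2.81 for the 19S base ATPases and 2.70 for the 19S non-ATPase members. Against tdTomato+ cells it was 3.45, 3.44, 2.95 and 2.99 in the same order of subcomplexes. Against tdTomato- cells it was 2.00, 2.88, 2.61 and 3.16. For the alpha members, tdTomato- replicate 1 reached a summed level of 952 CPM, and the lowest tdTomato- library had 367 CPM.

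**Figure D1:**
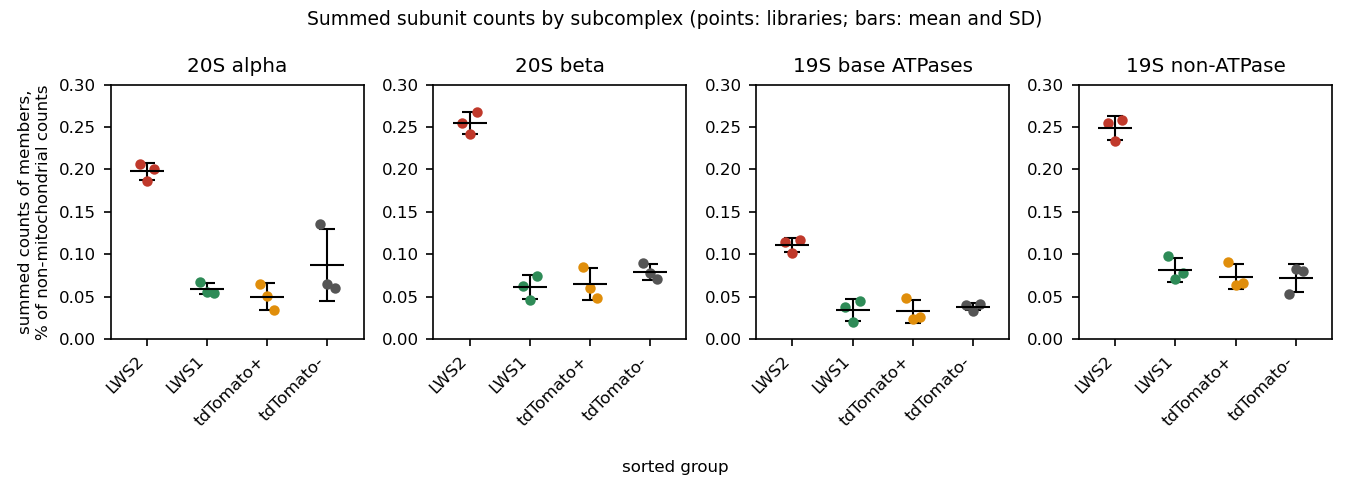
Summed counts of the members of each large subcomplex, as a percentage of non-mitochondrial counts, in LWS2, LWS1, tdTomato+ and tdTomato- libraries (points are libraries, bars the mean and SD, n = 3). In every panel the 3 LWS2 libraries sit above the other 9, and in the 20S alpha panel tdTomato- replicate 1, at 0.136%, stands above the rest of its group.

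Among the alpha subunits, which form the gated outer rings of the 20S core, psma1 had 232, 180.4 and 164 normalised CPM in LWS2 cones, against 90.3, 85.3 and 58.7 in LWS1 cones, 90.9, 65.4 and 39.3 in tdTomato+ cells and 368, 81.3 and 84.4 in tdTomato- cells. Its LWS2 libraries lay above those of LWS1 and tdTomato+, but the first tdTomato- library, with 111 counts in the shallowest sample, lay above all of them. The same library was the highest for psma8, a gene whose mammalian namesake encodes a testis form of an alpha subunit, with 193, 173 and 182 normalised CPM in LWS2 cones, against 63.3, 87.8 and 70.4 in LWS1 cones, 93.2, 63.8 and 35.98 in tdTomato+ cells and 282, 81.8 and 59.5 in tdTomato- cells. For psma3, with 274, 206 and 239.5 normalised CPM in LWS2 cones, against 73.7, 51.7 and 88.00 in LWS1 cones, 85.8, 44.9 and 43.1 in tdTomato+ cells and 156, 57.7 and 52.8 in tdTomato- cells, that library lay under the LWS2 range and above the other 8.

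The alpha member with the largest log2 fold change of LWS2 over LWS1 was psma4, with 179.9, 167 and 165 normalised CPM in LWS2 cones, against 33.2, 49.2 and 36.7 in LWS1 cones, 34.5, 40.96 and 28.9 in tdTomato+ cells and 9.95, 36.1 and 54.6 in tdTomato- cells. The lowest LWS2 library, at 165 CPM, was above the highest of the other 9, at 54.6 CPM. The smallest log2 fold change was that of psma5, with 86.9, 63.02 and 79.7 normalised CPM in LWS2 cones, against 48.3, 14.8 and 33.7 in LWS1 cones, 51.00, 21.3 and 7.58 in tdTomato+ cells and 82.9, 42.8 and 37.6 in tdTomato- cells. One tdTomato- library of psma5 lay inside the LWS2 range. The feature psma2 (ENSDARG00000040121) had 81.6, 86.5 and 86.99 normalised CPM in LWS2 cones, against 24.4, 31.99 and 27.9 in LWS1 cones, 39.5, 29.9 and 17.04 in tdTomato+ cells and 13.3, 36.1 and 22.5 in tdTomato- cells, so that its LWS2 libraries were all higher than the other 9.

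The beta subunits include the 3 catalytic ones. For psmb6, which carries the caspase-like activity, the levels were 297, 262 and 259 normalised CPM in LWS2 cones, against 67.98, 57.4 and 42.5 in LWS1 cones, 64.5, 64.6 and 27.5 in tdTomato+ cells and 133, 50.2 and 66.8 in tdTomato- cells. Each LWS2 library exceeded every library of the other groups. For psmb7, the trypsin-like subunit, they were 199, 209.6 and 189 normalised CPM in LWS2 cones, against 46.2, 42.6 and 108 in LWS1 cones, 83.1, 45.7 and 48.8 in tdTomato+ cells and 103, 61.4 and 60.7 in tdTomato- cells. The chymotrypsin-like subunit psmb5 is represented by a pair of features. The first (ENSDARG00000075445) had 157, 126 and 141 normalised CPM in LWS2 cones, against 47.7, 37.7 and 54.3 in LWS1 cones, 88.8, 44.1 and 38.8 in tdTomato+ cells and 63.02, 55.6 and 44.3 in tdTomato- cells. The second (ENSDARG00000111880) had 102, 71.9 and 88.9 normalised CPM in LWS2 cones, against 30.6, 36.1 and 26.4 in LWS1 cones, 46.95, 31.5 and 15.6 in tdTomato+ cells and 26.5, 30.7 and 30.9 in tdTomato- cells. Both features of psmb5 were highest in LWS2, without overlap.

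The other beta subunits have structural roles. The largest log2 fold change of LWS2 over LWS1 among beta members was that of psmb1, with 189, 172 and 197 normalised CPM in LWS2 cones, against 35.8, 29.5 and 14.7 in LWS1 cones, 58.1, 38.6 and 24.1 in tdTomato+ cells and 86.2, 50.6 and 43.1 in tdTomato- cells. The smallest log2 fold change was that of psmb4, with 232, 223 and 214 normalised CPM in LWS2 cones, against 72.7, 31.2 and 147 in LWS1 cones, 139.8, 62.2 and 44.98 in tdTomato+ cells and 69.7, 104 and 85.6 in tdTomato- cells. Its LWS1 libraries spread from 31.2 to 147 CPM, and none reached the LWS2 range. Levels of psmb2 were 182, 150.1 and 178 normalised CPM in LWS2 cones, against 32.7, 30.4 and 82.1 in LWS1 cones, 59.5, 37.8 and 38.8 in tdTomato+ cells and 46.4, 51.9 and 49.8 in tdTomato- cells. Those of psmb3 were 194, 176 and 225 normalised CPM in LWS2 cones, against 39.96, 32.8 and 70.4 in LWS1 cones, 86.8, 63.01 and 34.6 in tdTomato+ cells and 103, 73.5 and 49.2 in tdTomato- cells. All 8 beta members had their 3 LWS2 libraries above the other 9.

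The ATPases of the 19S base form a ring that unfolds substrates and opens the alpha gate. Levels of psmc5 were 197, 182 and 211 normalised CPM in LWS2 cones, against 60.7, 37.7 and 144 in LWS1 cones, 107, 44.9 and 47.4 in tdTomato+ cells and 53.1, 56.9 and 66.2 in tdTomato- cells. LWS1 replicate 3 stood apart from the other LWS1 libraries for this gene, still below LWS2. Those of psmc2 were 166, 120.3 and 129.8 normalised CPM in LWS2 cones, against 67.5, 34.5 and 82.1 in LWS1 cones, 78.7, 33.1 and 29.8 in tdTomato+ cells and 33.2, 32.4 and 47.9 in tdTomato- cells, and those of psmc1b were 79.2, 66.3 and 79.3 normalised CPM in LWS2 cones, against 22.8, 11.5 and 24.9 in LWS1 cones, 29.7, 6.3 and 11.4 in tdTomato+ cells and 29.9, 29.1 and 40.7 in tdTomato- cells. Both genes were higher in each LWS2 library than in any other.

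For psmc3 the levels were 104, 82.7 and 95.3 normalised CPM in LWS2 cones, against 33.7, 12.3 and 33.7 in LWS1 cones, 48.3, 34.7 and 20.4 in tdTomato+ cells and 153, 39.01 and 33.99 in tdTomato- cells, and tdTomato- replicate 1 exceeded all LWS2 libraries. The gene psmc4 has a pair of features. The first (ENSDARG00000027099) had 127, 98.2 and 108 normalised CPM in LWS2 cones, against 33.2, 32.8 and 36.7 in LWS1 cones, 66.2, 28.4 and 29.8 in tdTomato+ cells and 9.95, 40.7 and 55.8 in tdTomato- cells. The second (ENSDARG00000109415) had 22.4, 29.9 and 31.1 normalised CPM in LWS2 cones, against 6.23, 3.28 and 10.3 in LWS1 cones, 24.99, 1.57 and 11.4 in tdTomato+ cells and 6.63, 5.81 and 6.68 in tdTomato- cells, and here tdTomato+ replicate 1 lay inside the LWS2 range. It was nonetheless the ATPase feature with the largest log2 fold change of LWS2 over LWS1, at 2.15. With 12, 4 and 7 counts in LWS1, it was tested there because LWS2 was high.

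Of the 19S non-ATPase members, psmd1 and psmd2 are large scaffolds of the base to which ubiquitin-binding factors dock. Levels of psmd1 were 125, 110.1 and 99.9 normalised CPM in LWS2 cones, against 45.1, 25.4 and 41.1 in LWS1 cones, 42.6, 33.1 and 33.1 in tdTomato+ cells and 46.4, 42.3 and 29.7 in tdTomato- cells. Those of psmd2 (ENSDARG00000099653) were 60.2, 47.98 and 49.02 normalised CPM in LWS2 cones, against 34.2, 23.8 and 16.1 in LWS1 cones, 22.6, 7.09 and 33.6 in tdTomato+ cells and 23.2, 12.4 and 17.6 in tdTomato- cells. Both of these features had their LWS2 libraries above the other 9, with the smaller gap for psmd2. Another psmd2 feature, ENSDARG00000103190, is not a member and differed. It had 28.1, 20.8 and 19.2 normalised CPM in LWS2 cones and 12.4, 4.1 and 13.2 in LWS1 cones. In tdTomato+ cells it had 12.2, 12.6 and 66.3, and in tdTomato- cells 49.8, 10.8 and 20.03. Its log2 fold change of LWS2 was -0.46 ± 0.62 over tdTomato+ (edgeR FDR 0.875) and -0.03 ± 0.56 over tdTomato- (edgeR FDR 0.979).

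The ubiquitin receptors of the particle are the products of psmd4a, psmd4b and adrm1. Levels of psmd4a were 64.9, 59.7 and 55.9 normalised CPM in LWS2 cones, against 37.9, 31.2 and 23.5 in LWS1 cones, 58.4, 13.4 and 21.3 in tdTomato+ cells and 3.32, 41.1 and 32.2 in tdTomato- cells, and tdTomato+ replicate 1 fell within the LWS2 range. Those of psmd4b were 69.2, 57.3 and 61.1 normalised CPM in LWS2 cones, against 20.8, 8.2 and 42.5 in LWS1 cones, 19.2, 5.51 and 13.3 in tdTomato+ cells and 0, 25.7 and 18.2 in tdTomato- cells. For psmd4b no library outside LWS2 reached the LWS2 range. The first adrm1 feature (ENSDARG00000058560) had 60.9, 57.05 and 51.3 normalised CPM in LWS2 cones, against 14.5, 19.7 and 17.6 in LWS1 cones, 15.9, 11.03 and 14.2 in tdTomato+ cells and 26.5, 13.3 and 21.2 in tdTomato- cells. The second (ENSDARG00000113912) had 58.5, 31.2 and 27.1 normalised CPM in LWS2 cones, against 14.5, 9.02 and 1.47 in LWS1 cones, 10.5, 14.2 and 13.7 in tdTomato+ cells and 39.8, 27.4 and 22.5 in tdTomato- cells, with 2 of its tdTomato- libraries inside the LWS2 range.

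The lid holds the deubiquitinase psmd14 and its partner psmd7. Levels of psmd14 were 107, 78.5 and 111 normalised CPM in LWS2 cones, against 39.96, 19.7 and 30.8 in LWS1 cones, 44.2, 16.5 and 20.4 in tdTomato+ cells and 19.9, 34.9 and 33.99 in tdTomato- cells, and those of psmd7 were 149.5, 111 and 148 normalised CPM in LWS2 cones, against 56.6, 20.5 and 49.9 in LWS1 cones, 38.8, 42.5 and 37.4 in tdTomato+ cells and 0, 46.5 and 29.7 in tdTomato- cells. A value of 0 in tdTomato- replicate 1 means only that the library, where 3 counts equal 9.95 CPM, gave no count. Neither gene had a library outside LWS2 within the LWS2 range.

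The remaining lid subunits are structural. Levels of psmd3 were 154, 129.6 and 139 normalised CPM in LWS2 cones, against 57.6, 26.2 and 41.1 in LWS1 cones, 51.00, 42.5 and 37.4 in tdTomato+ cells and 96.2, 42.8 and 38.8 in tdTomato- cells. Those of psmd6 were 162, 128 and 163 normalised CPM in LWS2 cones, against 62.3, 97.6 and 79.2 in LWS1 cones, 87.1, 68.5 and 25.1 in tdTomato+ cells and 29.9, 66.4 and 70.4 in tdTomato- cells, and those of psmd8, with the smallest log2 fold change of LWS2 over LWS1 of all members, were 148, 133 and 143 normalised CPM in LWS2 cones, against 77.3, 82.02 and 67.5 in LWS1 cones, 128, 64.6 and 42.6 in tdTomato+ cells and 19.9, 43.2 and 56.4 in tdTomato- cells. For psmd8, tdTomato+ replicate 1 came close to the lowest LWS2 library without reaching it.

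Levels of psmd11a were 41.5, 37.1 and 49.02 normalised CPM in LWS2 cones, against 17.6, 13.9 and 13.2 in LWS1 cones, 14.2, 14.97 and 10.4 in tdTomato+ cells and 6.63, 17.4 and 15.2 in tdTomato- cells. Those of its copy psmd11b were 61.2, 51.3 and 54.6 normalised CPM in LWS2 cones, against 23.4, 9.84 and 24.9 in LWS1 cones, 25.3, 12.6 and 17.5 in tdTomato+ cells and 16.6, 20.8 and 13.96 in tdTomato- cells. Both copies were highest in LWS2, without overlap. Levels of psmd12 were 157, 149 and 144 normalised CPM in LWS2 cones, against 51.4, 45.9 and 92.4 in LWS1 cones, 69.6, 39.4 and 26.99 in tdTomato+ cells and 6.63, 43.6 and 44.9 in tdTomato- cells, and those of psmd13 were 124, 148 and 132 normalised CPM in LWS2 cones, against 30.6, 20.5 and 20.5 in LWS1 cones, 32.4, 22.1 and 29.4 in tdTomato+ cells and 39.8, 28.2 and 36.4 in tdTomato- cells. For psmd13 the lowest LWS2 library had 124 CPM and the highest of the other 9 had 39.8 CPM. The product of psmd10 (gankyrin) is a chaperone of base assembly in yeast and mammals and not a lasting subunit, and its levels were 11.03, 9.73 and 12.9 normalised CPM in LWS2 cones, against 0, 0 and 4.4 in LWS1 cones, 4.05, 0 and 0 in tdTomato+ cells and 0, 4.57 and 3.64 in tdTomato- cells. Its LWS1 libraries held at most 3 counts each, so LWS2 was at least 4.0-fold higher by the mean of the per-library floors of 3 counts.

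The activator subunit psme1 (PA28 alpha), which in mammals forms a ring with psme2 that opens the core independently of ubiquitin, had 42.8, 23.00 and 34.00 normalised CPM in LWS2 cones, against 1.04, 1.64 and 0 in LWS1 cones, 2.03, 2.36 and 2.37 in tdTomato+ cells and 0, 2.49 and 11.5 in tdTomato- cells. The psme1 counts were 128, 104 and 163 in LWS2, 2, 2 and 0 in LWS1, 6, 3 and 5 in tdTomato+ and 0, 6 and 19 in tdTomato- libraries. The partner psme2, which is not a member, had 7.02, 4.2 and 2.71 normalised CPM in LWS2 cones and 0, 0.82 and 1.47 in LWS1 cones. In tdTomato+ cells it had 0.676, 11.03 and 1.42, and in tdTomato- cells 0, 7.47 and 4.855. Its log2 fold change of LWS2 was 0.20 ± 0.94 over tdTomato+ (edgeR FDR 0.973) and -0.20 ± 0.65 over tdTomato- (edgeR FDR 0.885). Relative to the same floors, psme1 was at least 11.9-fold higher in LWS2 than in LWS1. No library of another group came within the LWS2 range of psme1. Such floors do not cover the spread between libraries, and PCR copies are not independent molecules.

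The assembly factors help to build the alpha ring. For psmg2 the levels were 12.7, 9.95 and 13.98 normalised CPM in LWS2 cones, against 2.6, 0 and 0 in LWS1 cones, 1.35, 1.57 and 0.947 in tdTomato+ cells and 3.32, 7.47 and 11.5 in tdTomato- cells, and tdTomato- replicate 3 lay inside the LWS2 range. For psmg4 they were 27.1, 32.3 and 27.7 normalised CPM in LWS2 cones, against 3.63, 5.74 and 14.7 in LWS1 cones, 15.2, 24.4 and 9.94 in tdTomato+ cells and 9.95, 7.47 and 21.2 in tdTomato- cells. Here every LWS2 library was above the other 9, with tdTomato+ replicate 2 the nearest.

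**Figure D2:**
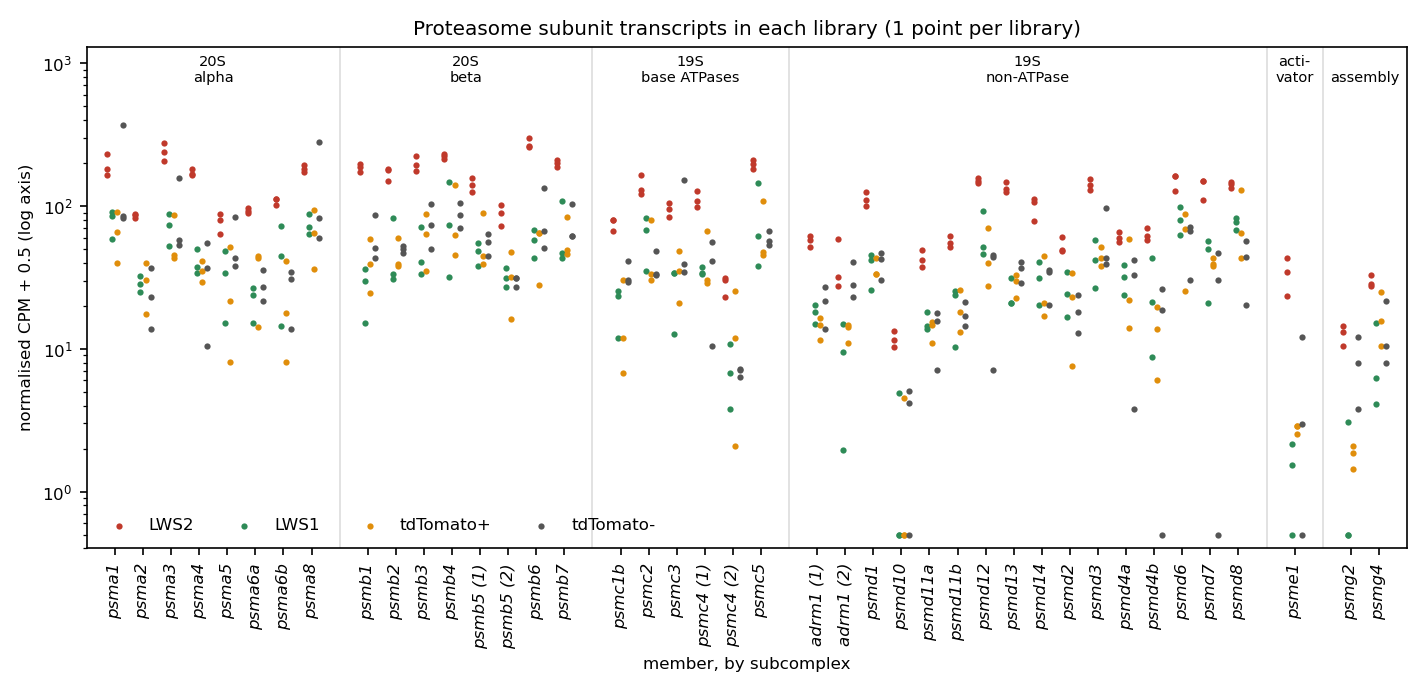
Normalised CPM plus 0.5 (log axis) of the 41 members in each of the 12 libraries, grouped by subcomplex, where (1) and (2) mark the paired features of a symbol in order of their identifiers. LWS2 libraries (red) lie above the other 9 for 33 members, as for psma4, where the lowest LWS2 library has 165 CPM and the highest other library 54.6 CPM.

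In LWS2 against LWS1, the contrast that chose the members, all 41 had positive log2 fold changes, as had 48.7% of all features tested. The members had a median of 1.69 and a range from 0.90 (psmd8) to 4.95 (psme1), beside -0.02 over all 8432 features tested. Past an edgeR FDR of 0.05 and a fold of 2 were 24 members, where 1.2% of all features tested were higher by that rule. They were 6 of 8 alpha, 7 of 8 beta, 3 of 6 ATPase and 7 of 16 non-ATPase members and psme1, but neither assembly factor. The low-count filter's cutoff was 5.7 CPM (before TMM scaling). In 6 members it was reached in all 3 LWS2 libraries but not in all 3 LWS1 libraries, as in 25.4% of all features tested. They were psme1, psmd10, psmg2, psmg4 and the second psmc4 and adrm1 features, tested because LWS2 was high. Of the 24, only psme1 was among them. In no member did the LWS2 and LWS1 libraries overlap, as in 13.2% of all features with LWS2 above. These counts restate the choice and nothing is read from them. With psme1 and psmd10 set to their floor-based ratios the median was also 1.69. By subcomplex the median log2 fold change was 1.49 for alpha, 1.77 for beta, 1.77 for ATPase and 1.56 for non-ATPase members. The count past the cutoffs fell to 4, 9 and 0 when LWS2 replicate 1, 2 or 3 was left out, and 10, 34 and 1 of all features were higher. In those fits edgeR gave an unadjusted p under 0.05 to 40, 41 and 41 members. With all libraries it gave one to all 41, and 7.19% of all features were higher at that level. These p-values also restate the choice, and nothing is read from them.

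The choice rested on an adjusted p in the study's own test. The members ranked last by p in DESeq2 here were psmd2 (ENSDARG00000099653), psma6b and psma5, with log2 fold changes of 1.04, 1.38 and 1.23. Among proteasome features with no entry in the deposited tables, the smallest p in DESeq2 belonged to pomp, psme4 (ENSDARG00000018742) and psmc1, with 0.79, 0.66 and 1.1. Sizes just inside and just outside therefore overlapped.

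LWS2 cones were also higher than tdTomato+ cells, which were not used in the choice, although the LWS2 libraries were. The choice favoured features high in those LWS2 libraries. The p-values and FDRs of members against tdTomato+ cells therefore lean towards passing and are given as a description. All 41 members were tested and all were positive, as were 45.8% of all features. Of the members, 14 rose past an edgeR FDR of 0.05 and a fold of 2, where the share of all 9598 features tested that were higher by the same rule was 0.708%. The median log2 fold change was 1.60 (range 0.82 to 3.86), beside -0.06 over all features. The libraries did not overlap for 39 members, as in 9.87% of all features with LWS2 above, and the exceptions were psmd4a and the second psmc4 feature. Those that rose were 2 of 8 alpha (psma3 and psma4), 4 of 8 beta (psmb1, psmb2, psmb6 and psmb7), 0 of 6 ATPase and 6 of 16 non-ATPase members (psmd1, psmd3, psmd4b, psmd7, psmd13 and the first adrm1 feature), with psme1 and psmg2. Of these 14, psme1, psmd4b and psmg2 reached the low-count filter's cutoff of 3.54 CPM (before TMM scaling) in all 3 LWS2 libraries but not in all 3 tdTomato+ libraries, so that they were tested because LWS2 was high. The same held for 7 of the 41 members and for 33.3% of all features tested. Among the 34 members at or above the cutoff in all tdTomato+ libraries, 11 rose, and the share over all such features was not computed. Of the ATPase members, 5 of 6 had an unadjusted p under 0.05, and their median log2 fold change was 1.48. Such a p was given to 37 of the 41 members, where 4.93% of all features were higher at that level. DESeq2 called 31 members, with 149 of all 9598 features higher.

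The log2 fold change of LWS2 over tdTomato+ was 2.29 ± 0.29 for psma4 (SE, edgeR FDR 0.0154). It was 2.24 ± 0.30 for psmd13 (edgeR FDR 0.0155). In both genes all 3 LWS2 libraries were higher than all 3 tdTomato+ libraries. For psme1, which entered the fit through LWS2 alone, 3.86 ± 0.48 is given with no FDR. Among beta subunits psmb6 had 2.38 ± 0.37 and psmb1 2.19 ± 0.35, both with an edgeR FDR of 0.0249. The members with the smallest values, psmg4 (0.82 ± 0.41), psmd8 (0.84 ± 0.38) and psmd4a (0.92 ± 0.47), did not pass.

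The number of members past both cutoffs depended on single libraries, as did the number over all features. For members it was 0, 1 and 0 without LWS2 replicate 1, 2 or 3, and 37, 0 and 4 without tdTomato+ replicate 1, 2 or 3. Over all features, 1, 18 and 0, and then 242, 8 and 14, were higher in the same fits. An unadjusted edgeR p under 0.05 went to 35 to 40 members in these fits, and every member stayed positive. The tdTomato+ libraries also differed in mitochondrial share, at 22.0%, 71.7% and 41.2%, and the fit without mitochondrial genes again called 14 members. The tdTomato+ libraries held more rod transcripts, and 10 of 11 tested rod markers were lower in LWS2 at an unadjusted p under 0.05. Their part in the result was not tested.

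Against tdTomato- cells, 30 of 41 members rose in LWS2 cones, where 4.51% of 9604 features tested were higher by the same rule. The median log2 fold change was 1.57 (range 0.11 to 2.54), beside -0.01 over all features, and the libraries did not overlap for 35 members, against 18.6% of all features with LWS2 above. All 8 beta members passed, with 5 of 6 ATPase, 12 of 16 non-ATPase and 4 of 8 alpha members and psme1, and neither assembly factor did. Of the 30, psme1, psmd4b and psmd7 fell short of the filter's cutoff in at least 1 tdTomato- library and entered through LWS2. Such entry held for 6 of the 41 members and for 35.7% of all features tested. Of the 35 members at or above the cutoff in all tdTomato- libraries, 27 rose, and the share over all such features was not computed. The log2 fold change was 1.77 ± 0.27 for psmb2 (SE, edgeR FDR 0.00248), 1.73 ± 0.26 for psmc5 (edgeR FDR 0.00259) and 1.99 ± 0.31 for psmd13 (edgeR FDR 0.00272). In all 3 genes each LWS2 library was above each tdTomato- library.

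The members with the smallest differences were psma1 at 0.11 ± 0.57, psma8 at 0.39 ± 0.54, psmc3 at 0.41 ± 0.56 and the second adrm1 feature at 0.44 ± 0.42. For psma1, psma8 and psmc3 the highest tdTomato- library was replicate 1, and without that library 36 members passed and the lowest member value became 0.43. The count was 16 and 6 without LWS2 replicate 1 or 3, and 19 and 14 without tdTomato- replicate 2 or 3. Over all features, 181, 85, 173 and 183 were higher in these fits in the same order, and 774 without tdTomato- replicate 1. The LWS2 comparisons with LWS1, tdTomato+ and tdTomato- share the LWS2 libraries and are not independent of each other. The choice favoured high LWS2 values, so the members' p-values and FDRs against tdTomato- cells are also given as a description.

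No member differed past the cutoffs between LWS1 cones and tdTomato+ cells. The LWS1 libraries were used in the choice, which favoured features low in LWS1, so these values are not free of it. Of 38 members tested, 0 passed in edgeR, 0 had an unadjusted p under 0.05 and 0 passed in DESeq2, where 0.0139% of 7214 features tested were higher and 0% lower past both cutoffs, and 2.44% were higher and 2.94% lower at an unadjusted p under 0.05. The median log2 fold change was 0.05 (range -1.14 to 0.94), and 22 members were positive, beside 47.2% of all features. All 38 95% intervals crossed 0, with half-widths from 0.917 to 1.89 (median 1.12) on the log2 scale. The smallest p-values belonged to psmg4 (log2 fold change -1.14 ± 0.74, edgeR FDR 0.922), psma6b (0.94 ± 0.68, edgeR FDR 0.943) and the second psmc4 feature (-1.03 ± 0.88, edgeR FDR 0.946). The library ranges of LWS1 and tdTomato+ overlapped for every one of the 38 members, while they did not overlap for 4.8% of all features with LWS1 above and 5.14% with LWS1 below.

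Against tdTomato- cells, 36 members were tested in LWS1 cones and 0 passed in edgeR or in DESeq2, where 2.39% of 6361 features tested were higher and 4.7% lower. At an unadjusted p under 0.05 edgeR had 1 member, the second adrm1 feature, with a log2 fold change of -1.70 ± 0.73 (edgeR FDR 0.211), and DESeq2 had 4. Of all features, 11.3% were lower at that level in edgeR. Next by p were psmc3 (-1.5 ± 0.70, edgeR FDR 0.249) and psmb1 (-1.13 ± 0.54, edgeR FDR 0.263). The median was -0.08 (range -1.70 to 0.90), with 16 of 36 members positive, beside 51.8% of all features. Here too the choice favoured low LWS1 values, so a lower LWS1 level may come in part from it.

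The comparison of tdTomato+ with tdTomato- cells used none of the libraries behind the choice of members, and it gave no member a difference past the cutoffs. The authors' own table of this comparison lists genes they called and holds 0 members. The absence of calls, above all in DESeq2, thus partly restates that table and is given as a description. Of 38 members tested, 0 passed in edgeR and 0 in DESeq2, where 0.146% of 8236 features tested were higher in tdTomato+ and 1.99% lower. At an unadjusted p under 0.05 there was 1 member by either tool, psma1, at -1.49 ± 0.65 (edgeR FDR 0.336), where 8.68% of all features were lower at that level. Next were the second adrm1 feature (-1.16 ± 0.59, edgeR FDR 0.439) and psma8 (-1.17 ± 0.64, edgeR FDR 0.483). All 3 have their highest CPM of the 2 groups in tdTomato- replicate 1. The median over the members was -0.08 (range -1.49 to 1.05), beside 0.11 over all features, and 17 of 38 members were positive, beside 55.2% of all features. By subcomplex the median was -0.45 for alpha, -0.20 for beta, 0.19 for ATPase and -0.03 for non-ATPase members. The 95% intervals had a median half-width of 1.25 and 37 of 38 crossed 0. The members psme1, psmd10 and psmg2 were too low to be tested here.

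**Figure D3:**
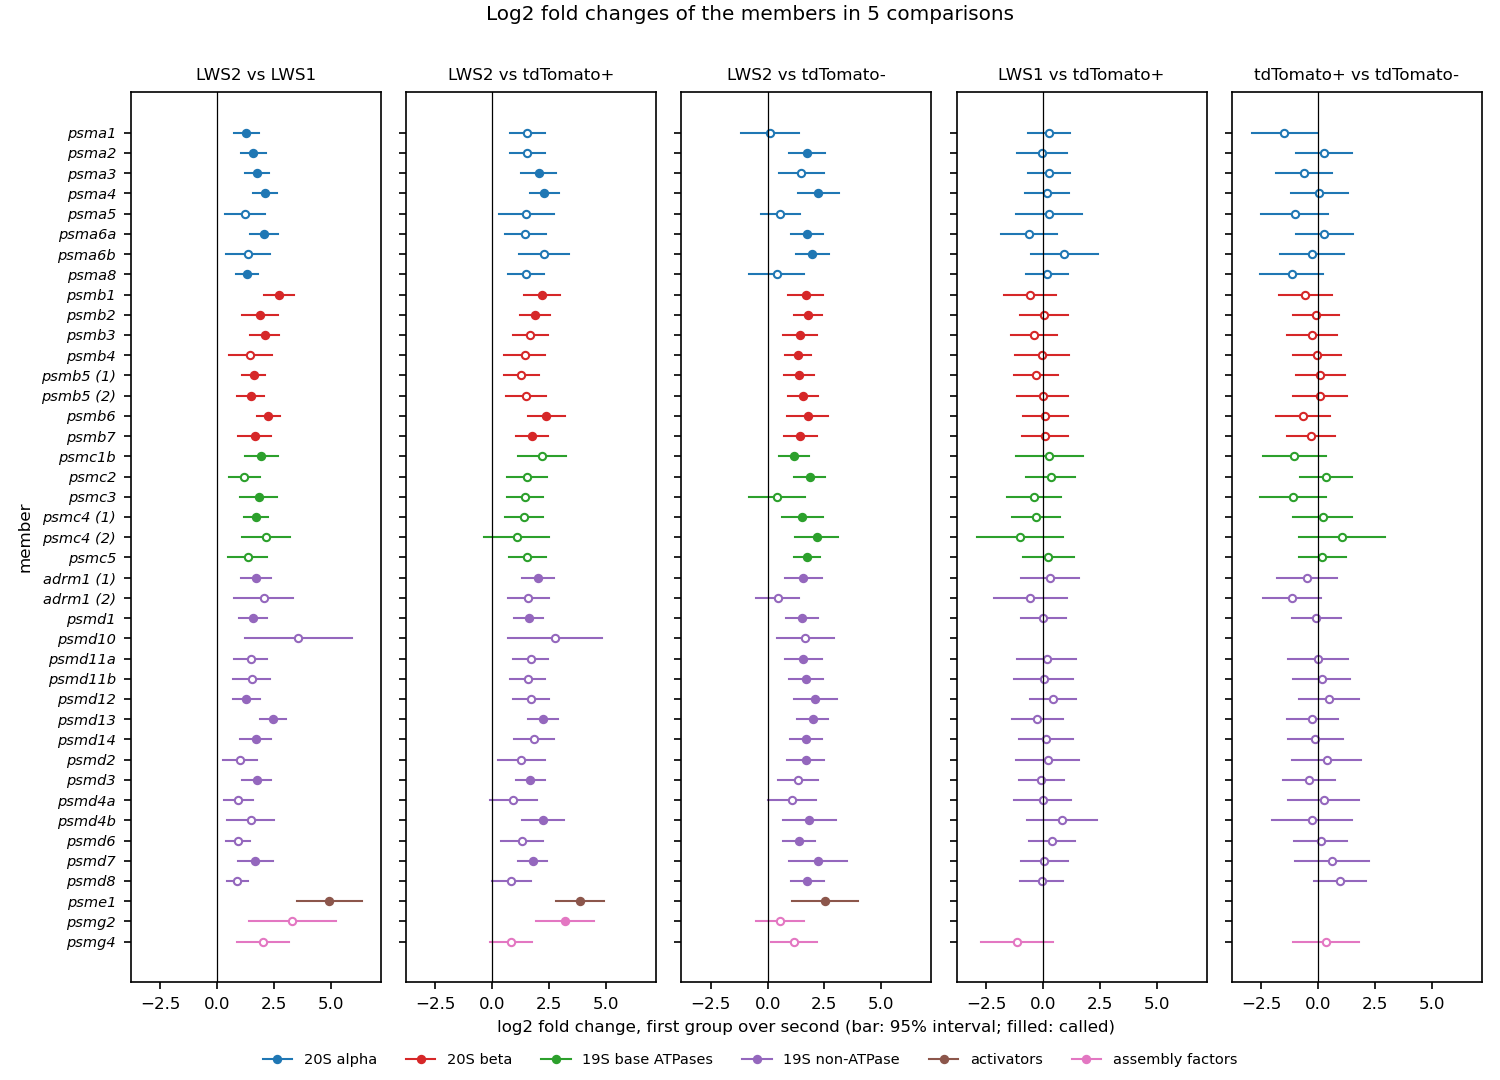
Log2 fold changes (first group over second) of the members in 5 comparisons, with 95% intervals from edgeR (filled points passed an edgeR FDR of 0.05 and a fold of 2, and colours give the subcomplex). The members lie right of 0 in the 3 comparisons that hold LWS2 and spread around 0, with 0 filled points, in LWS1 against tdTomato+ and in tdTomato+ against tdTomato-.

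Taking all libraries at once, the 3 LWS2 libraries were above each of the other 9 for 33 of 41 members (80.5%), and for 2.32% of the 10154 features kept over the 12 libraries. The LWS2 libraries entered the choice of members, so the count is given as a description. The 8 exceptions were psma1, psma5, psma8, psmc3, the second psmc4 feature, the second adrm1 feature, psmd4a and psmg2. LWS2 had the highest mean of the 4 groups in all 41 members. The lowest mean fell to LWS1 in 12 members, to tdTomato+ in 15 and to tdTomato- in 14, so no one of these groups lay under the others throughout.

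A further 23 features carry proteasome names but are not members, because the deposited tables give them no symbol of the chosen pattern. Those tables list genes the authors called, and apart from sem1 they name none of these features. Smaller values of LWS2 over LWS1 than in the members thus follow in part from the choice. In LWS2 against LWS1, 15 of them were tested and 14 were positive, with a median log2 fold change of 0.66 (range -0.33 to 1.33). Only sem1, a small 19S subunit, passed both cutoffs, at 1.19 ± 0.24 (edgeR FDR 0.0394), and it also stands in the deposited table. Levels of sem1 were 213, 284 and 248 normalised CPM in LWS2 cones, against 105, 137 and 82.1 in LWS1 cones, 206, 89.01 and 55.9 in tdTomato+ cells and 36.5, 82.2 and 91.03 in tdTomato- cells. Over all 64 proteasome features 56 were tested and 25 passed, all of them higher, where 101 of 8432 features tested were higher. Most of the 25 are members, so this count too restates the choice.

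Features outside the choice also included core subunits. The psma2 feature ENSDARG00000035679 had 77.9, 73.2 and 75.3 normalised CPM in LWS2 cones, against 16.6, 18.9 and 67.5 in LWS1 cones, 25.3, 8.66 and 13.7 in tdTomato+ cells and 9.95, 17.02 and 18.2 in tdTomato- cells, and it was the 1 of 16 such features that rose in LWS2 against tdTomato+ (log2 fold change 2.2 ± 0.39, edgeR FDR 0.0320). The base ATPase psmc1 (ENSDARG00000030537) had 86.6, 107 and 111 normalised CPM in LWS2 cones, against 24.4, 80.4 and 38.1 in LWS1 cones, 57.1, 25.2 and 32.2 in tdTomato+ cells and 26.5, 39.4 and 27.9 in tdTomato- cells, with a log2 fold change of 1.39 ± 0.35 that did not pass (edgeR FDR 0.130). The chaperone pomp, which assists beta ring assembly, had 112, 152 and 145 normalised CPM in LWS2 cones, against 57.1, 91.05 and 92.4 in LWS1 cones, 77.7, 72.5 and 38.8 in tdTomato+ cells and 26.5, 58.5 and 61.3 in tdTomato- cells, with 1.11 ± 0.33 (edgeR FDR 0.238). Against tdTomato- cells, 5 of the 16 rose in LWS2: sem1, psmc1, pomp, psma2 and psmc6. Over all features tested, 433 of 9604 rose in LWS2 against tdTomato- cells and 68 of 9598 against tdTomato+ cells.

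The alternative activator psme4 (PA200) did not follow the members in LWS2 against the tdTomato+ cells. Its feature ENSDARG00000018742 had 128, 112 and 112 normalised CPM in LWS2 cones, against 89.8, 58.2 and 74.8 in LWS1 cones, 153, 220.5 and 196 in tdTomato+ cells and 129, 228 and 172 in tdTomato- cells. The log2 fold change of LWS2 over tdTomato+ was -0.71 ± 0.28 (edgeR FDR 0.418). The second feature (ENSDARG00000087911) had 98.3, 85.8 and 92.6 normalised CPM in LWS2 cones, against 107, 41.8 and 46.9 in LWS1 cones, 111, 130.0 and 194 in tdTomato+ cells and 36.5, 81.8 and 81.3 in tdTomato- cells, with -0.67 ± 0.30 (edgeR FDR 0.501). For the nuclear activator psme3 the value was -0.26 ± 0.35 (edgeR FDR 0.877). Over LWS1, the psme4 features had 0.66 ± 0.23 (edgeR FDR 0.224) and 0.47 ± 0.35 (edgeR FDR 0.588) in LWS2, the direction of the members. Both were also lower in LWS1 than in tdTomato+, at -1.38 ± 0.38 (edgeR FDR 0.418) and -1.17 ± 0.46 (edgeR FDR 0.748). None of these passed, and their difference from the members was not tested. The sum over the 23 features was 1035 ± 28.3 CPM in LWS2, 589 ± 23.7 in LWS1, 737 ± 56.3 in tdTomato+ and 588.5 ± 157 in tdTomato- libraries.

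**Figure D4:**
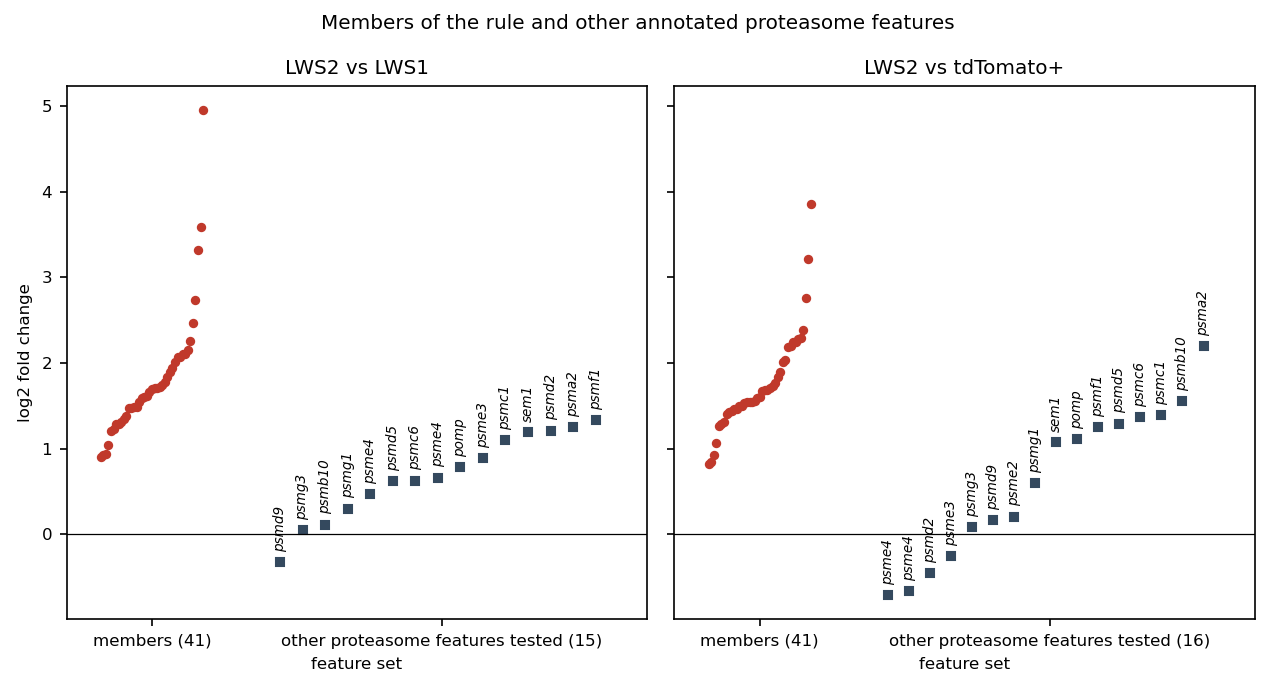
Log2 fold changes of the 41 members (red circles, sorted) and of the other proteasome features that were tested (squares, named), in LWS2 against LWS1 and LWS2 against tdTomato+. In LWS2 against LWS1 the other features run from -0.33 (psmd9) to 1.33 (psmf1), under the member median of 1.69, a gap that the choice of members favours.

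Zebrafish retain a and b copies of some subunits. Reads could be split between near-identical copies, so the balance within these pairs, and within the paired features of psmb5, psmc4 and adrm1, is uncertain. Levels of psma6a were 96.3, 92.4 and 88.2 normalised CPM in LWS2 cones, against 23.4, 26.2 and 14.7 in LWS1 cones, 42.6, 44.1 and 13.7 in tdTomato+ cells and 26.5, 35.3 and 21.2 in tdTomato- cells. Those of psma6b were 111, 102 and 112 normalised CPM in LWS2 cones, against 44.1, 13.9 and 71.9 in LWS1 cones, 40.5, 17.3 and 7.58 in tdTomato+ cells and 13.3, 30.3 and 33.99 in tdTomato- cells. Each copy had its LWS2 libraries above the other 9. The psma6a share of the pair was 46.0% ± 1.73 in LWS2, 39.0% ± 24.5 in LWS1, 62.5% ± 10.4 in tdTomato+ and 53.0% ± 14.1 in tdTomato- libraries (SD, n = 3 each). The psmd4a share was 49.1% ± 1.74 in LWS2, 59.8% ± 22.2 in LWS1, 69.2% ± 6.93 in tdTomato+ and 75.1% ± 21.6 in tdTomato- libraries. In tdTomato- replicate 1 that share, 100%, rested on 1 count (95% Wilson interval from 20.7%). The psmd11a share was 43.2% ± 3.61 in LWS2, against 45.4% ± 12.2, 42.5% ± 10.2 and 42.1% ± 12.2 in LWS1, tdTomato+ and tdTomato- libraries. Of 9 two-sided exact permutation tests of LWS2 against each other group, the 3 smallest gave p = 0.1, the smallest that 3 against 3 allows (adjusted p = 0.3): psma6a against tdTomato+, and psmd4a against tdTomato+ and tdTomato-.

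**Figure D5:**
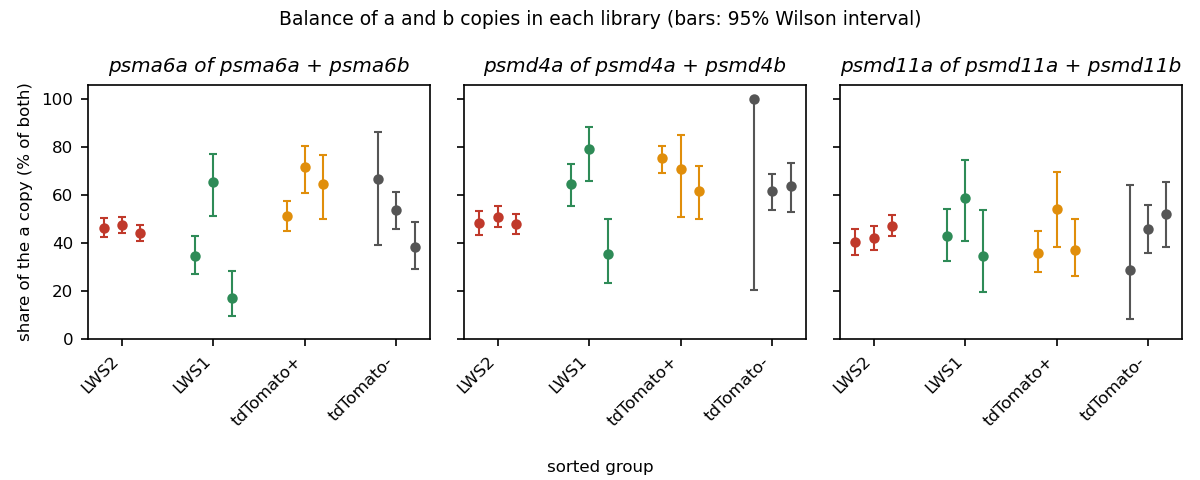
Share of the a copy in the summed counts of its a and b pair, in each library of LWS2, LWS1, tdTomato+ and tdTomato- (points, with 95% Wilson intervals that cover counting error only). LWS2 libraries lie between 47.8% and 51.0% for psmd4a, under all 3 tdTomato+ libraries (61.6% to 75.2%), while the psmd11a shares overlap in all groups.

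Partners and regulators of the proteasome were followed through a list of 36 features. This list and that of the chaperones were chosen with earlier results of these data known. Their p-values, FDRs and counts are therefore given as a description. In LWS2 against LWS1, 3 of 34 tested passed both cutoffs (sqstm1, an adaptor of ubiquitin and autophagy, and ufd1l and nsfl1c, cofactors of the unfoldase vcp) and 0 were lower, with a median log2 fold change of 0.49. Of all 8432 features tested, 101 were higher and 51 lower. Levels of sqstm1 were 172, 104 and 175 normalised CPM in LWS2 cones, against 22.8, 22.1 and 20.5 in LWS1 cones, 36.1, 25.99 and 18.5 in tdTomato+ cells and 49.8, 67.2 and 40.1 in tdTomato- cells. In LWS2 against tdTomato+, sqstm1 (2.47 ± 0.36, edgeR FDR 0.0217) and keap1a were higher, 2 of 34, where 68 of 9598 features were higher. The tdTomato+ libraries held 1 keap1a count in all, so keap1a was tested because LWS2 was high, and it is given as a description. Against tdTomato- cells 6 of 34 were higher in LWS2 (nfe2l1b, nsfl1c, sqstm1, ufd1l and both vcp features) and 0 lower. Of all 9604 features tested, 433 were higher and 768 lower. In LWS1 against tdTomato+ 0 of 32 passed (0 at an unadjusted p under 0.05), in LWS1 against tdTomato- 0 of 30 (8 at that level, beside 1318 of 6361 features) and in tdTomato+ against tdTomato- 0 of 33 (1 at that level, beside 1105 of 8236 features). Levels of nfe2l1b, whose mammalian counterpart is a transcription factor for proteasome genes, were 89.3, 74.5 and 86.8 normalised CPM in LWS2 cones, against 48.8, 46.8 and 16.1 in LWS1 cones, 42.9, 33.9 and 37.4 in tdTomato+ cells and 13.3, 17.4 and 29.1 in tdTomato- cells. Its log2 fold change of LWS2 over tdTomato- was 2.00 ± 0.34 (edgeR FDR 0.00489). It did not pass both cutoffs in LWS2 against LWS1 or tdTomato+. The listed features nfe2l1a, nfe2l2a and nfe2l2b passed in none of the LWS2 comparisons. Of 35 chaperone features, 0 of 30 tested passed in LWS2 against LWS1 (median log2 fold change 0.33, with 8 at an unadjusted p under 0.05 in either direction, beside 1228 of 8432 features). In LWS2 against tdTomato+ it was 0 of 33 (median 0.23, with 4 at that level, beside 963 of 9598 features). In LWS2 against tdTomato-, hsf2 and a single feature of the hspa4 pair were higher and hspb1 lower, of 33 tested. Of all 9604 features, 433 were higher and 768 lower. In LWS1 against tdTomato-, hspb1 was lower and no other of 28 tested passed, where 152 of 6361 features were higher and 299 lower. None of 30 passed in LWS1 against tdTomato+ (0 at an unadjusted p under 0.05) and none of 31 in tdTomato+ against tdTomato- (3 at that level).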

How the data were processed

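Retinal cells were dissociated and sorted by fluorescence, and polyadenylated RNA was sequenced. The counts per Ensembl gene deposited by the authors for 12 libraries are whole numbers with no normalization. Per the labels, the submitters' processing notes name Trimmomatic 0.36, FastQC 0.11.5 and Salmon 0.13.1, and the reference was GRCz11, while the step that gave the deposited counts is not given in the sources used here. The deposited tables of the authors' comparisons hold fold changes and p-values, which were not used, and 12 per-sample columns, also not used. Only their symbols and identifiers were taken, and they list genes the authors called. Further names came from a table of Ensembl identifiers and symbols, which named 23598 of 30258 features and 37 of the 41 members.

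The members and the gene lists were chosen with earlier results of these data known. Each pair of groups was fitted alone with edgeR 4.0.16 (quasi-likelihood test, filterByExpr, TMM, Benjamini-Hochberg over all features tested), and "called" means an FDR under 0.05 and a fold above 2. The script was tested on simulated data. DESeq2 1.42.0, which the study's methods use, was an alternative, with RLE, no filter, a replicate block, all groups in one fit, no mitochondrial genes, normalization without proteasome features, summed features of a symbol, and each library left out. Levels are TMM-normalised CPM computed here. Between replicates of a group, the chi-square of the counts was 6.24 to 169 times its degrees of freedom, which exceeds sampling noise, and none was treated as a repeat. Within each subcomplex, genes were named for the highest level and the largest and smallest fold change of LWS2 over LWS1, with the 3 smallest p of each other comparison, paralogs, and members of the minority direction. Values are given here for all 41 members. A search of promoters for motifs was planned and not run, since no sequences were used here, and none are printed.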

Additional observations from a re-analysis of the deposited data

How the results depend on the processing

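In LWS2 against LWS1, 24 members were called, 39 with no filter on low counts and 4 with all 4 groups in one fit. Over all features 101, 267 and 20 were higher. Leaving out 1 library gave 0 to 26 members and 1 to 97 of all features. In LWS2 against tdTomato+, 14 were called, 31 with DESeq2, 36 with no filter, 32 with the replicate block and 9 with all groups in one fit. Over all features 68, 149, 198, 129 and 46 were higher. Leaving out 1 library gave 0 to 37 members, with medians of 1.54 to 2.03, and 0 to 242 of all features. In LWS2 against tdTomato-, 30 were called, and 6 to 36 with 1 library left out, beside 433 and 85 to 774 of all features. There psma1 had a log2 fold change of -0.17 and -0.10 without tdTomato- replicate 2 or 3 and of 1.26 without replicate 1, where it was called, against 0.11 with all libraries. The ratio of the members' share of counts was 5.51 for LWS2 over tdTomato- and 1.38 for LWS1 over tdTomato-, and 2.94 and 0.849 over non-mitochondrial counts. In LWS2 against LWS1 and tdTomato+ every member stayed positive in all alternatives. In the other 3 comparisons 0 members were called in any alternative. The cause of these shifts was not tested.

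Replicate numbers gave little sign of pairing the samples, which 3 libraries per group cannot exclude. For LWS2 and LWS1, cells of the same line, the correlations described next were 0.174, 0.15 and 0.000416. Correlations of same-numbered libraries' deviations ran from -0.136 to 0.216, and 4 of 18 exceeded 0.1. With the number as a block, 31 members were called in LWS2 against LWS1, 32 against tdTomato+ and 31 against tdTomato-. Over all features 123, 129 and 360 were higher in these fits. Depth limits the smallest libraries, where 3 counts equal 9.95 CPM in tdTomato- replicate 1 and 4.40 CPM in LWS1 replicate 3. The promoter motif search was not run.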

Other observations

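The features psmb8, psmb9 and psmb10 are named for the induced catalytic subunits of the immunoproteasome. For psmb8 the LWS2 libraries held 0.669, 0.442 and 0.209 normalised CPM, the LWS1 libraries 0 in all 3, the tdTomato+ libraries 0, 4.73 and 0, and the tdTomato- libraries 3.32, 13.7 and 4.25. For psmb9 no library exceeded 2.43 CPM. The feature psmb10 had 17.1, 15.7 and 18.8 CPM in LWS2, 24.4, 16.4 and 4.40 in LWS1, 6.76, 6.30 and 4.26 in tdTomato+ and 19.9, 21.2 and 15.2 in tdTomato- libraries. Unlike psme1, psmb10 had overlapping LWS2 and LWS1 libraries, with a log2 fold change of 0.11 ± 0.53 (edgeR FDR 0.955). That contrast chose psme1 and not psmb10, so this difference between them restates the choice.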
